A study of Mus musculus with 768 samples.

Results

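Mfap5-positive myelinating Schwann cells (mSCs) of the adult mouse sciatic nerve were chosen by measured expression, as the cells in which a set of myelination genes outweighed a set of non-myelinating genes and in which Mfap5 reached 100 CPM (reads of a gene scaled to a common total of reads per cell). They numbered 98 of the 623 cells that passed the filters, out of 768 sequenced. Schwann cells (SCs) are the glia of peripheral nerves. A myelinating SC wraps a single large axon, whereas a non-myelinating (Remak) SC holds several small ones. The mice were at postnatal day 60 (P60), on a C57bl/6J background, and carried P0Cre-/+, ReYFP Tg/+ and βAct-DsRed Tg/+. P0Cre switches on the yellow reporter in the SC lineage. Yellow cells were sorted singly after enzymatic dissociation of the nerve. All cells came from this 1 genotype, age and gate, and no treated or control mice belong to the comparison. Libraries were made by Smart-Seq2, a full-length method without molecular identifiers. There were 2 plates of 384 cells, and each pooled cells of 2 male and 2 female mice, so the plate was the replicate (n = 2).

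For each cell with at least 1500 detected genes and 20000 reads, M was the mean of log2(CPM + 1) over Ncmap, Prx, Pllp, Cldn19, Fam178b and Kcnk1, and N the same mean over Scn7a, Ncam1, Ptn, Lgals3, Ntrk3 and Rab3b. M exceeded N in 161 cells of plate 1 and 83 of plate 2. Of these, 79 and 19 were Mfap5-positive, and the other 82 and 64 served as the Mfap5-negative comparison. The remaining 143 and 236 kept cells had M at or below N (M ≤ N cells). Every positive cell had an M of 8.20 or more, and the smallest excess of M over N among them was 4.40. These values belong to the rule. Among myelin genes outside it, Mag, an adhesion protein of the inner myelin membrane, was at 560 and 770 CPM in the positive cells of plates 1 and 2 and at 149 and 391 CPM in M ≤ N cells, and Mbp, myelin basic protein, at 9105 and 10939 CPM against 3337 and 5192 CPM.

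Mfap5 encodes a glycoprotein of the fibrillin microfibrils that give connective tissue its elasticity. The genes given with it as markers have varied roles. Ogn encodes osteoglycin, a small leucine-rich proteoglycan of the matrix. Cntf encodes ciliary neurotrophic factor, a survival factor for motor neurons for which SCs are the classical source. Spp1 encodes osteopontin, a secreted matrix phosphoprotein, Apod a lipid-carrying lipocalin, Sncg gamma-synuclein and Slc36a2 a proton-coupled amino acid transporter.

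Ogn, Apod and Cntf were each called higher in Mfap5-positive cells (below). The 250 bases before their RefSeq starts are shown, on the strand of each gene and in the build GRCm38.p6. Sncg was also called higher, and its window is not shown. They lie at chr13:49607765-49608014 (Ogn, plus strand), chr16:31314809-31315058 (Apod, minus strand) and chr19:12765633-12765882 (Cntf, minus strand). None of these windows held an annotated exon. Capitals mark matches, on either strand, to letters of 5 motifs.
Ogn: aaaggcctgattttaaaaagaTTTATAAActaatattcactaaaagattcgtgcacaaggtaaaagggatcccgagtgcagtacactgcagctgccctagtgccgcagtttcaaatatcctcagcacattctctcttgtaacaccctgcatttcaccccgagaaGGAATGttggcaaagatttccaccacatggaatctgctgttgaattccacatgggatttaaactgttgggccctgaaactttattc
Apod: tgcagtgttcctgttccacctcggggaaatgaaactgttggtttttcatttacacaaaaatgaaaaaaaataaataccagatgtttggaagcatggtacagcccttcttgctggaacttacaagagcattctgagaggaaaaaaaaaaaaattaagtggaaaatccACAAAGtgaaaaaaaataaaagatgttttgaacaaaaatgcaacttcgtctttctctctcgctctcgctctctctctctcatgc
Cntf: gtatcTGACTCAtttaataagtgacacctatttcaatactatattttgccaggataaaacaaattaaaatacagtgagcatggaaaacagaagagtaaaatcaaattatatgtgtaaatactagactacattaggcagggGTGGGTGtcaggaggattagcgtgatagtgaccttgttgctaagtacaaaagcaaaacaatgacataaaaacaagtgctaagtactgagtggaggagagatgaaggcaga
The letters searched were TATAAA for the box of core promoters, ACAAAG for SOX factors, GTGGGNG for EGR factors, GGAATG for TEAD factors and TGANTCA for AP-1. The Ogn window held TATAAA on both strands, at overlapping positions between 229 and 222 bases before the start, and GGAATG at 86 to 81. The Apod window held ACAAAG at 84 to 79 bases before the start. The Cntf window held TGANTCA at 245 to 239 and GTGGGNG at 110 to 104. Among 32851 promoter windows of the same length, TATAAA occurred in 12.4%, ACAAAG in 16.5%, GTGGGNG in 28.1%, GGAATG in 12.6% and TGANTCA in 6.75%. No motif was shared by the 3 windows.

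Mfap5 itself, which chose the cells, formed 2 separate levels in plate 2. In plate 1 most values were below 100 CPM or at 1000 CPM or more, with fewer cells in between and no gap at the limit. Positive cells of plate 1 ranged from 108 to 7894 CPM with a median of 2291, and those of plate 2 from 424 to 4999 CPM with a median of 2951. The positive cells nearest the limit had 108, 160 and 266 CPM in plate 1 and 424, 825 and 866 CPM in plate 2. The negative cells nearest to it had 98.2, 75.8 and 70.6 CPM in plate 1 and 2.18, 1.12 and 0.685 CPM in plate 2. In the plate 1 cells at 108 and 98.2 CPM the value rested on 5 and 3 reads. A low level of Mfap5 was present in plate 1 at large, with 7.36 CPM in the summed negative cells and 8.76 CPM in the M ≤ N cells. In plate 2 these sums were 0.0697 and 0.0463 CPM. Of the 161 cells of plate 1 with M above N, 33 lay between 10 and 100 CPM, 12 between 100 and 1000 CPM and 67 higher. Of the 83 of plate 2, 0, 3 and 16 did.

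**Figure D1:**
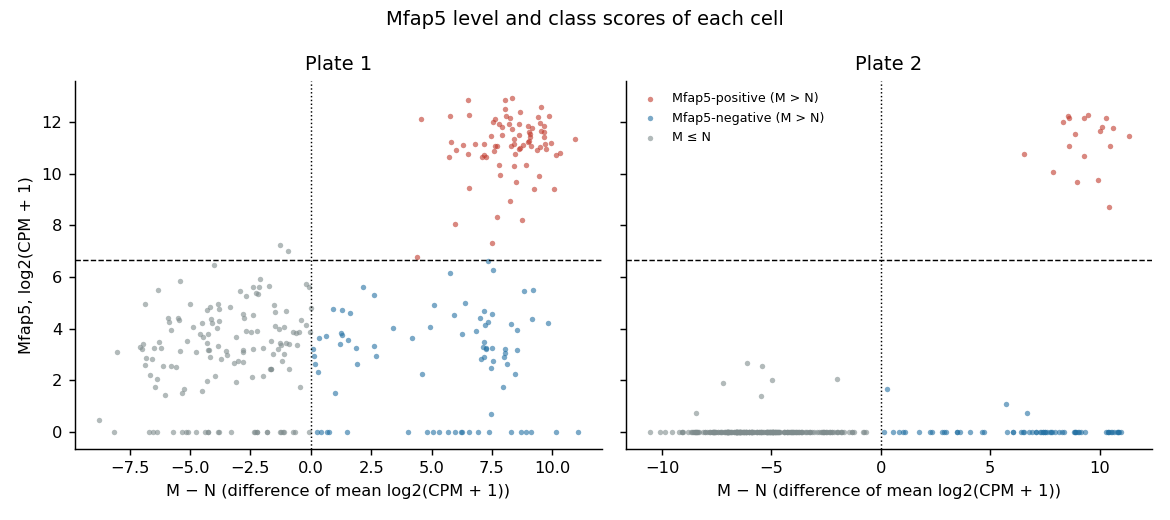
Mfap5 level of each kept cell, as log2(CPM + 1), against the difference between the M and N scores, for plates 1 and 2; the dashed line is the limit of 100 CPM and the dotted line the limit between the M > N and M ≤ N classes. Positive cells form a cloud at the upper right that starts at a difference of 4.40, and 2 cells of the M ≤ N class in plate 1 lie above 100 CPM.

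The share of positive cells among cells with M above N was 49.1% in plate 1 (exact 95% interval 41.1% to 57.1%) and 22.9% in plate 2 (14.4% to 33.4%), and averaged 36.0% ± 18.5 (SD, n = 2). Both intervals cover counting error only, and they did not overlap. Among cells with M of 8 or more, a limit chosen after the data were seen, the shares were 60.8% (51.8% to 69.2%) and 38.8% (25.2% to 53.8%). That limit kept all 79 and 19 positive cells and left 51 and 30 negative cells, so it could only raise the shares. The 2 intervals overlapped, which is no evidence that the plates agree. Positive cells were spread over each plate, with 22 of 24 first and 15 of 16 second index names in plate 1 and 13 of 16 rows and 14 of 24 columns in plate 2.

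The 6 other markers were found together in the positive cells. All 6 reached 100 CPM in 50 of 79 positive cells of plate 1 (63.3%) and 10 of 19 of plate 2 (52.6%). None of the 82 and 64 negative cells had all 6, which allows up to 3.66% and 4.69% of cells. At least 4 of them were found in 94.9% and 84.2% of positive cells and in 8.54% and 1.56% of negative cells. These genes were picked with results of these data known, so their values describe the cells and are no independent evidence.

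To compare genes between the positive and negative cells of the same plates, reads were summed per plate and class and tested with edgeR. Of 13288 genes tested, 47 (0.354%) passed an adjusted p of 0.05 (Benjamini-Hochberg), 28 (0.211%) higher and 19 (0.143%) lower in positive cells. For all 47, plates 1 and 2 gave ratios of the same direction. The tests rest on 2 plates and 2 residual degrees of freedom, with the spread of each gene moderated by that of other genes. At an unadjusted edgeR p under 0.05 there were 658 genes (4.95%) higher and 620 (4.67%) lower. By size alone (at least 4-fold in each plate, with 50 CPM or more, and a read in 25% of cells, in the higher class of each plate), 96 genes (0.722%) were higher and 66 (0.497%) lower. The median log2 ratio of all tested genes was -0.21, so the ratios given lie 0.21 further from the typical gene when positive and nearer to it when negative.

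Ogn was at 3818 and 2091 CPM in the positive sums of plates 1 and 2 and at 311 and 285 CPM in the negative sums, a log2 ratio of 3.52 ± 0.35 (SE, edgeR adjusted p = 0.00836). Single positive cells ran from 15 to 10754 CPM in plate 1 and from 0 to 4933 in plate 2, with medians of 3340 and 2073. Positive and negative cells overlapped, since 35.4% and 26.6% of negative cells also reached 100 CPM. Ogn was the marker whose call was lost without the plate as a block (adjusted p = 0.0663). Of the 15 small leucine-rich proteoglycans listed, 8 were tested and Ogn was the 1 called. Fmod, Lum, Kera, Epyc, Aspn, Chad and Podnl1 had 0 reads in positive cells.

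Sncg was at 1918 and 1461 CPM in positive and 128 and 140 CPM in negative sums (log2 ratio 3.88 ± 0.34, SE, edgeR adjusted p = 0.00638). Its median over positive cells was 1726 CPM (0 to 3831) in plate 1 and 996 CPM (0 to 4598) in plate 2. The M ≤ N cells were lower still, with 46.8 and 36.5 CPM.

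Cntf was at 4225 and 3784 CPM against 213 and 104 CPM (log2 ratio 4.94 ± 0.44, SE, edgeR adjusted p = 0.00638). Positive cells ranged from 3.40 to 23009 CPM in plate 1 (median 2998) and from 0 to 13801 in plate 2 (median 2790). Between them, 92.4% and 89.5% reached 100 CPM, compared with 22% and 9.38% of negative cells and 34.3% and 28.4% of M ≤ N cells. Cntf (chromosome 19, 12763660 to 12765632) overlaps exons of Zfp91 on the same strand, and Zfp91 was at 4298 and 3788 CPM in positive and 254 and 105 CPM in negative cells. Reads in the shared exons cannot be assigned to 1 of the 2 genes. Positive cells held 80580 and 53450 reads of Zfp91 and 79201 and 53385 of Cntf, so few Zfp91 reads lay outside Cntf. Of 17 tested trophic factors, Cntf was the 1 called. Fgf1, Pdgfa, Fgf7 and Bmp7 had higher values in positive cells of both plates without passing (adjusted p of 0.154 to 0.439), with Fgf7 at 157 and 368 CPM against 11.9 and 49.1 CPM. There were 11 listed factors with 0 reads in positive cells, Bdnf, Ntf3 and Gdnf among them.

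Apod was at 2138 and 1662 CPM in positive cells and at 23.6 and 2.28 CPM in negative cells, a log2 ratio of 8.02 ± 0.87 (SE, edgeR adjusted p = 0.0113). In plate 1 positive cells ran from 0 to 9725 CPM with a median of 1624, and in plate 2 from 0 to 4279 with a median of 971. The shares at 100 CPM were 87.3% and 73.7%, with 3 of 82 and 1 of 64 negative cells. The M ≤ N cells lay between, at 170 and 115 CPM. It was the only apolipoprotein, lipocalin or fatty acid carrier of 12 tested that was called higher. Apoe, the other major lipid carrier of SCs, was called lower, as given below.

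Spp1 had the widest spread. It reached 4685 and 6670 CPM in the positive sums and 13.5 and 0.0930 CPM in the negative sums, yet single positive cells ran from 0 to 26876 CPM in plate 1 and from 0 to 23763 in plate 2. In 23 of 79 and 8 of 19 positive cells it stayed below 100 CPM. The fitted log2 ratio was 11.07 ± 1.84 (SE) and the edgeR adjusted p 0.0599, so it was not called. Gm42793, which overlaps Spp1 on the same strand (chromosome 5, 104435121 to 104436372), was called at 10.65 ± 1.70 (SE, edgeR adjusted p = 0.0495), so its reads and those of Spp1 cannot be told apart. Spp1 was called in 9 of 14 alternatives, among them that with M of 8 or more in both classes (10.96, edgeR adjusted p = 0.0257). Over the 14 its adjusted p ran from 6.01e-07 to 0.0808. The negative sum of plate 2 lay near 0, so the fitted value depends on the prior count, and with 1 CPM added the ratios within the plates were 8.34 and 12.58.

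Across positive cells the levels of Spp1 and Apod moved together. Pearson r of log2(CPM + 1) was 0.64 in plate 1 (79 cells) and 0.51 in plate 2 (19 cells), and Spearman rho was 0.72 and 0.69. No other pair of markers had a higher r in plate 1. Some pairs did in plate 2, among them Ogn with Cntf (0.75), and the rest were lower. Where Spp1 reached 100 CPM the median of Apod was 2266 and 1747 CPM, and where it did not, 758 and 195 CPM. Cntf had medians of 3132 and 4692 CPM in the first of these sets and 1334 and 1607 CPM in the second. These are descriptions over cells that share a plate and its mice, and depth enters both values of a pair.

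Slc36a2 was found in every positive cell at 100 CPM or more, from 110 to 7465 CPM in plate 1 and from 235 to 7926 in plate 2. It also reached that level in 53.7% and 56.2% of negative cells, and in 1.40% and 0.847% of M ≤ N cells. The sums were 2114 and 3790 CPM against 656 and 1782 CPM, a log2 ratio of 1.56 ± 0.65 (SE, edgeR adjusted p = 0.493), which was not called. It was called in 1 of 14 alternatives, the fit on only the 4 sums of cells with M above N (1.63, adjusted p = 0.000941). Its correlation with each of the other markers over positive cells lay between -0.33 and 0.29 (Pearson r, both plates), and Spearman rho between -0.27 and 0.45.

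**Figure D2:**
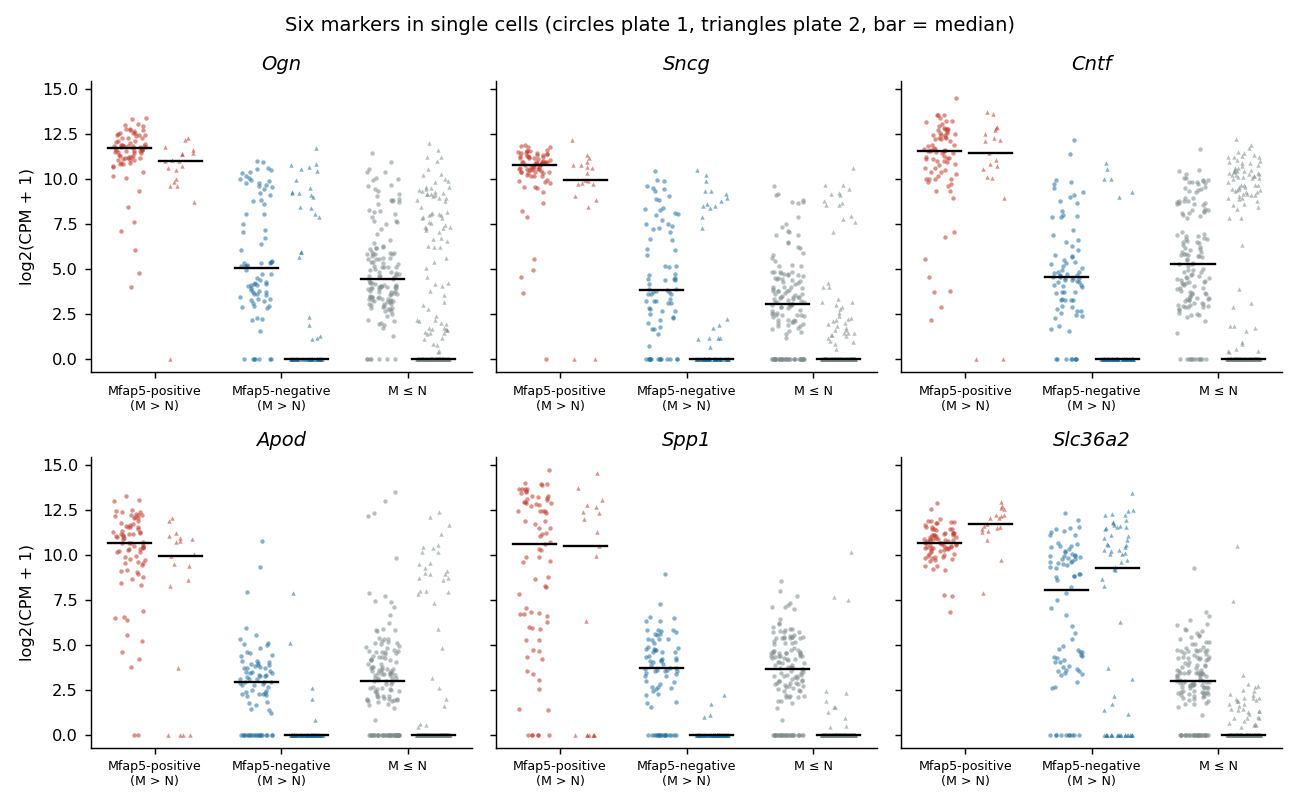
Level of the 6 markers in single cells as log2(CPM + 1), by class and plate (circles plate 1, triangles plate 2, bars medians). Apod and Spp1 spread widely in positive cells, and their medians in negative cells are 6.57 and 11.8 CPM in plate 1 and 0 in plate 2, while Slc36a2 is present in all positive cells and at 100 CPM or more in 53.7% and 56.2% of negative ones.

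Positive cells were rich in Pmp22, the tetraspan protein of compact myelin. It took 79828 and 113614 CPM in positive sums, 22659 and 36189 CPM in negative sums and 4677 and 4833 CPM in M ≤ N cells (log2 ratio 1.98 ± 0.22, SE, edgeR adjusted p = 0.0113). Single positive cells had medians of 76458 and 103623 CPM, above the medians of 21735 and 25402 in negative cells, and the ranges overlapped. Pmp22 was the 1 gene called among 6 of compact myelin, whose median log2 ratio was 1.27. Mal, a raft protein, had 1.26 ± 0.24 (edgeR adjusted p = 0.0879). Mbp, myelin basic protein, had 9105 and 10939 CPM against 13994 and 31406 CPM and was not called (-0.83 ± 0.24, 0.261).

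None of 20 tested genes of non-compact myelin and the paranode was called, with 11 higher and 5 lower in both plates. For comparison, 18.9% of all tested genes were higher and 35.8% lower in both plates. Cd9, a tetraspanin, had 1.23 ± 0.22 (adjusted p = 0.0683), Gjc3, a connexin, had -1.50 ± 0.29 (0.0907), and Mag was alike with 560 and 770 CPM against 599 and 960 CPM. None of 21 cholesterol synthesis genes was called (median log2 ratio 0.24, 8 higher and 7 lower in both plates). Among transcription factors of myelination 0 of 19 was called and 14 were lower in both plates (median -1.36). Egr2 and Sox10, the main drivers of the myelin program, had log2 ratios of 0.30 and -0.10. Nab2, a co-factor of Egr2 whose exons overlap Stat6 and Nemp1, had 38.7 and 15.5 CPM against 313 and 199 CPM (edgeR adjusted p = 0.0879), and Id2, an inhibitor of helix-loop-helix factors, had 75.8 and 48.5 CPM against 648 and 254 CPM (0.0745).

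Besides the markers, Pmp22 and the genes that share their reads, the genes higher in positive cells included secreted and matrix proteins. Nbl1, a secreted antagonist of bone morphogenetic proteins, was at 277 and 171 CPM against 0.855 and 1.19 CPM (log2 ratio 7.91 ± 0.87, SE, edgeR adjusted p = 0.0113). It reached 100 CPM in 59.5% and 31.6% of positive cells and in 1 negative cell of each plate. Col5a3, a fibrillar collagen chain, had 3.07 ± 0.45 (0.0370), Sbspon 2.55 ± 0.27 (0.0113) and Vwa1, a matrix protein of basement membranes, 2.23 ± 0.29 (0.0224). Gm37509 overlaps Sbspon on the other strand and was called with it at 2.48. Of 23 basal lamina genes and receptors Col5a3 was the 1 called, with 14 higher and 5 lower in both plates. Col4a1 and Col4a2, collagen chains of the basal lamina, had 2.13 and 2.27 (both 0.0683) and overlap each other on opposite strands. Vstm4, a membrane protein of the immunoglobulin family, had the largest fitted ratio of the called genes (10.98 ± 1.35, 0.0207) but was read in 20.3% and 10.5% of positive cells.

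Both chains of H2-DM, which loads peptides onto class II molecules of the major histocompatibility complex, were called. H2-DMb1 was at 634 and 1137 CPM against 2.28 and 30.9 CPM (6.81 ± 0.75, edgeR adjusted p = 0.0113). The reads of plate 2 negative cells came from 1 of 64 cells, and with the cell of most reads left out of each sum the ratio was 10.16. H2-DMa was at 571 and 1094 CPM against 11.9 and 52.3 CPM (5.22 ± 0.46, 0.00638), and its ratio was 8.47 with such cells left out. Its exons overlap those of Brd2 on the other strand. Neither chain was called without the plate as a block (adjusted p = 0.157 and 0.146) or with at least 2500 detected genes. They reached 100 CPM in 72.2% and 47.4% (H2-DMb1) and in 69.6% and 57.9% (H2-DMa) of positive cells. Cd74, the invariant chain that partners class II molecules in immune cells, had 0 reads in positive cells, as did Ptprc, Cd68, Cd52 and Cd3e. The 8 immune markers listed summed to 12.2 and 11.7 CPM against 6.44 and 21.9 CPM in negative cells, nearly all of it Csf1r.

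Of the other genes called higher, Evc2, a ciliary protein of Hedgehog signaling, had a log2 ratio of 5.47 ± 0.74 (edgeR adjusted p = 0.0249) and Dhrs3, a retinaldehyde reductase, 3.39 ± 0.49 (0.0365). Evc2 lost the call with at least 2500 detected genes and with the cell of most reads left out of each sum. Dhrs3 lost it without the plate as a block. Fam57a had 5.24, Cfap100 4.99, Rassf4 4.39 and Prrg3 3.11. Exons of Fam57a overlap Gemin4 and Glod4, and those of Cfap100 overlap Zxdc, on the other strand. Ucp2, an uncoupling protein of mitochondria, had 2.65, Endod1 2.87, Epdr1 2.81, Tspan3 1.92 and Tmem176a 1.93, with edgeR adjusted p between 0.0224 and 0.0486. Exons of Ucp2 overlap Dnajb13, and those of Tmem176a overlap Tmem176b, on the other strand. Etnppl had 9.76 and was read in 29.1% and 21.1% of positive cells, and Gm37376 had 1.39, from 45959 and 41525 CPM in positive cells. Some of these were not particular to myelinating cells in level. Rassf4, Dhrs3, Vwa1 and Tmem176a were higher in M ≤ N cells than in either class of myelinating cells, in both plates. Against M ≤ N cells, 18 of the 28 genes were also higher at an edgeR adjusted p under 0.05. Vstm4, Cfap100, Col5a3, Sbspon, Gm37509 and Tspan3 were higher in the positive sums than in the M ≤ N sums without passing (edgeR adjusted p of 0.0592 to 0.309). Of the 28 genes, 6 were lowest in M ≤ N cells in both plates (H2-DMa, Sncg, Ogn, Prrg3, Ucp2 and Pmp22).

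**Figure D3:**
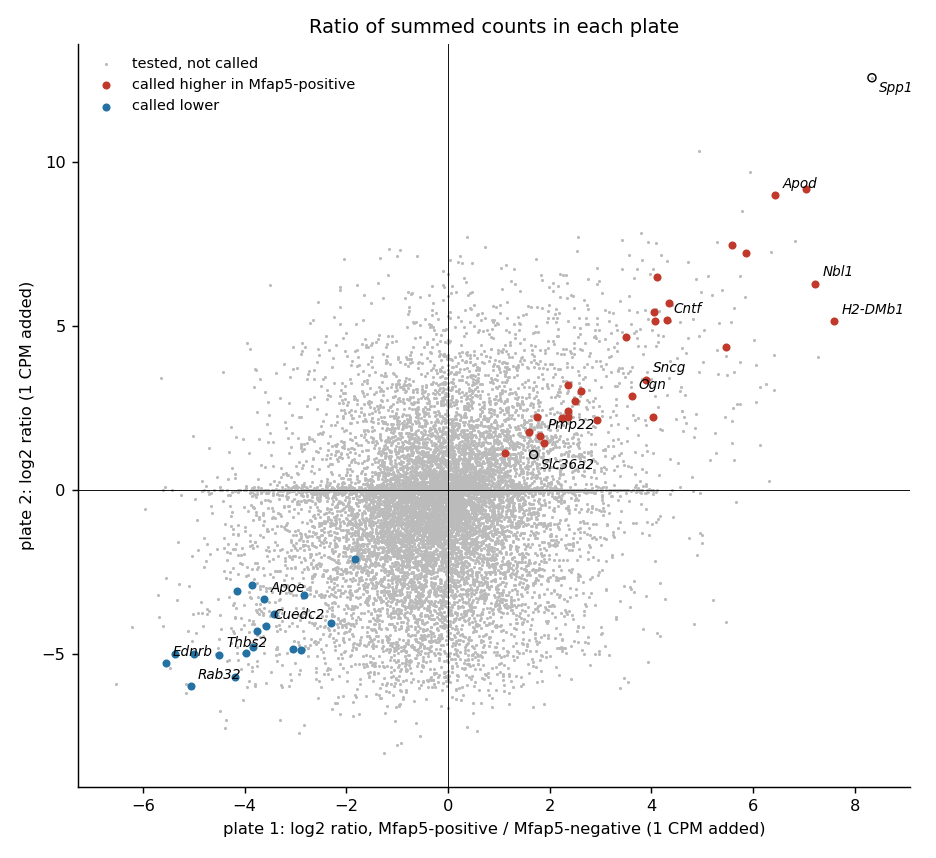
Log2 ratio of Mfap5-positive to Mfap5-negative summed CPM (1 CPM added) in plate 1 against plate 2 for 13288 genes (grey), with the 28 called higher in red, the 19 called lower in blue and 2 uncalled genes, Spp1 and Slc36a2, as open circles. Called genes lie in the upper right and lower left, and Spp1, which was not called, lies at 8.34 and 12.58.

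Among genes lower in positive cells, Cuedc2, an adaptor that binds ubiquitin, stood apart. It was at 405 and 274 CPM in positive cells, at 4828 and 4833 CPM in negative cells and at 324 and 313 CPM in M ≤ N cells (log2 ratio -3.61 ± 0.29, SE, edgeR adjusted p = 0.00638). Its median over cells was 162 and 20.6 CPM in the positive and 4038 and 3938 CPM in the negative class. The ranges overlapped, with a highest positive cell at 6022 CPM. Its exons overlap those of Fbxl15 on the other strand. Gypc, a membrane glycoprotein, was also highest in negative cells, with 340 and 893 CPM against 44.9 and 29.9 CPM in positive and 62.2 and 116 CPM in M ≤ N cells (-3.62 ± 0.55, 0.0446).

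Of the 19 genes called lower, 11 were highest in M ≤ N cells in both plates. Apoe was at 61.7 and 39.3 CPM in positive, 771 and 401 CPM in negative and 11092 and 31115 CPM in M ≤ N cells (-3.30 ± 0.52, edgeR adjusted p = 0.0487). Sparcl1 (hevin), Thbs2 (thrombospondin) and Igfbp7, secreted matrix-associated proteins, had -4.21, -5.62 and -5.34 and were the 3 called of 15 tested matricellular genes, all lower. Ednrb, a receptor for endothelins, was at 6.77 and 10.1 CPM against 364 and 427 CPM (-5.30 ± 0.53, 0.00836), and Lpar1, a receptor for lysophosphatidic acid, had -4.33. Rab32, a small GTPase, had -6.05, Hes1, a target of Notch signaling, -5.79, Ccnd1 (cyclin D1) -4.07, Ppic (cyclophilin C) -4.88, Abca8a (a lipid transporter) -3.55 and Cadm1 (a cell adhesion protein) -3.35. Ednrb and Ppic were not among the 11. Ppic was highest in negative cells, with 281 and 194 CPM against 261 and 156 CPM in M ≤ N cells. Ednrb was highest in negative cells of plate 2, with 267 CPM in the M ≤ N cells of that plate. Exons of Igfbp7 and Ccnd1 overlap another gene on the other strand.

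The M score was lower in negative than in positive cells, with medians of 8.89 and 7.81 against 10.4 and 10.4. In the sums, Fam178b had 2294 and 2069 CPM in positive against 453 and 496 CPM in negative cells. Kcnk1 had 818 and 733 against 128 and 305 CPM. For Ncmap, Prx, Pllp and Cldn19 the log2 ratios within plates lay between -0.84 and 0.32. A limit on M thus selects in part on Fam178b and Kcnk1. The comparison was repeated with a higher M in both classes. Against negative cells with M of 8 or more, 9 of the 19 genes called lower and 21 of the 28 called higher were called again. Thbs2 (-1.04, edgeR adjusted p = 0.886), Sparcl1 (-1.47, 0.719), Apoe (-1.73, 0.329) and Ednrb (-2.81, 0.162) lost the call. Rab32 (-5.12, 0.115), Hes1 (-4.71, 0.226), Lpar1 (-3.45, 0.0641) and Ccnd1 (-3.34, 0.206) lost it with ratios nearer to those above, as did, among genes called higher, Prrg3 (2.38, 0.127). Hes1 was called in 6 and Apoe in 8 of 14 alternatives. Cuedc2 (-3.95, 0.000910) and Gypc (-3.90) kept it, as did Igfbp7, Ppic, Abca8a and Cadm1.

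**Figure D4:**
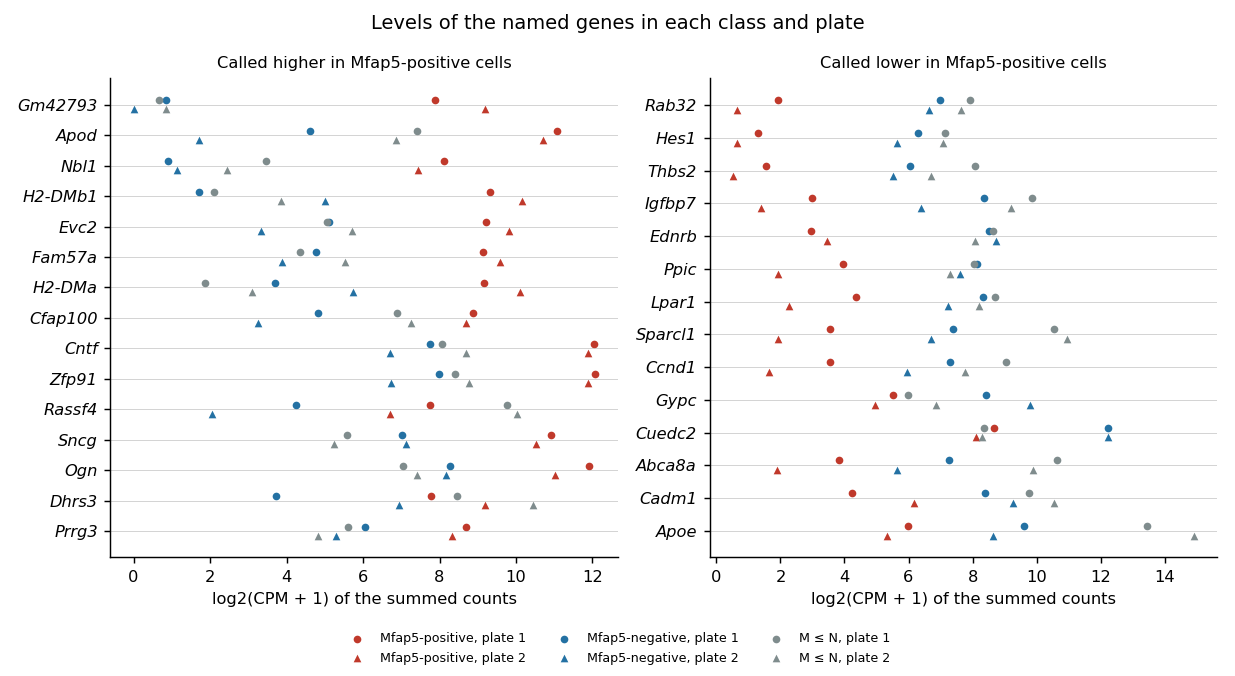
Level of 15 genes called higher (left) and 14 called lower (right), from those with the largest ratios, as log2(CPM + 1) of the summed counts, in positive (red), negative (blue) and M ≤ N (grey) cells (circles plate 1, triangles plate 2). Cuedc2 and Gypc are highest in negative cells, while Apoe and Sparcl1 are highest in M ≤ N cells.

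Reads of mitochondrial and ribosomal protein genes moved with the class. Mitochondrial genes took a median of 1.60% and 0.820% of the reads of positive cells and 3.84% and 2.01% of negative cells. Ribosomal protein genes took 1.29% and 0.803% against 3.67% and 2.00%. Rplp0, a ribosomal stalk protein, and Ybx1, a binder of mRNA, were among the genes called lower, with log2 ratios of -1.72 and -2.98, and so were Btg1 (-2.81) and Ece1 (-3.22). Of 24 immediate early and heat-shock genes, which respond to dissociation, 0 were called and 16 were lower in both plates, where 35.8% of all genes were. Fos was at 3769 and 8233 CPM against 10104 and 19457 CPM (log2 ratio -1.06, edgeR adjusted p = 0.224). The part of RNA quality or dissociation in the differences was not tested. A read of a Y chromosome gene was found after thinning to 20000 reads in 30.4% and 21.1% of positive and 54.9% and 17.2% of negative cells, and the part of the mice's sex was not tested.

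**Figure D5:**
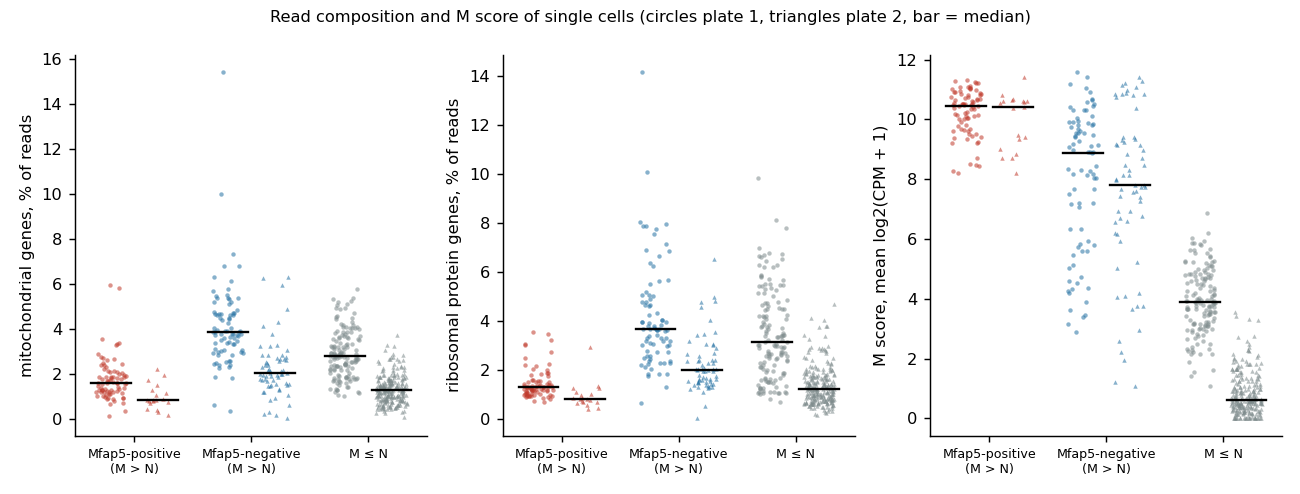
Share of reads in mitochondrial genes and in ribosomal protein genes, in percent, and M score (mean log2(CPM + 1)) of single cells by class and plate (circles plate 1, triangles plate 2, bars medians). Positive cells have the lowest median of both shares in each plate, and their M starts at 8.20 where negative cells go down to 2.89 and 1.09.

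Mfap5, Ogn and Spp1 are also genes of connective tissue, so markers of other cells were read in the same sums. Of 18 fibroblast markers, 11 had 0 reads in positive cells of both plates, Lum, Dpt, Clec3b, Ly6a, Cd34 and Pi16 among them. The list summed to 1376 and 1011 CPM in positive and 2658 and 1032 CPM in negative cells, held mostly by Col1a2 (1106 and 767 CPM), which was also at 1548 and 692 CPM in M ≤ N cells. Of 12 neuron and axon markers 6 had 0 reads (Nefl, Nefm, Prph, Thy1, Calca and Chat), and Uchl1 was at 53.1 and 51.5 CPM against 4.85 and 3.35 CPM (edgeR adjusted p = 0.363). Of 7 endothelial markers Cdh5, Tie1 and Cd300lg had 0 reads, while Egfl7 was at 118 and 123 CPM against 10.6 and 11.9 CPM (0.202). Of 8 pericyte and smooth muscle markers 5 had 0 reads, while the list summed to 143 and 140 CPM against 73.7 and 31.4 CPM in negative and 4.86 and 15.4 CPM in M ≤ N cells, led by Tagln (89.0 and 86.8 CPM). All 5 adipocyte markers had 0 reads. Of 7 perineurial markers Msln and Kcnj13 had 0 reads, and the list summed to 312 and 370 CPM against 134 and 353 CPM, led by Itgb4 (226 and 224 CPM), which was at 318 and 287 CPM in M ≤ N cells. The part of other cells in the differences was not tested. None of these markers was called in either direction.

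Of 23 tested genes of microfibrils and elastic fibres, the structures that hold Mfap5, 0 were called, with 7 higher and 11 lower in both plates (median log2 ratio -2.11). Lox, which crosslinks elastin and collagen, was at 326 and 57.9 CPM against 4.68 and 0 CPM (edgeR adjusted p = 0.113), and Fbln5, which organizes elastic fibres, at 240 and 610 CPM against 60.3 and 12.8 CPM (0.218). The fibrillin Fbn1 was at 20.2 and 2.06 CPM against 26.7 and 42.8 CPM, Fbln2 at 0.853 and 0.638 CPM against 55.0 and 20.9 CPM, and Eln, Fbln1 and Ltbp2 had 0 reads in positive cells. Of the 26 genes listed, 16 stayed under 10 CPM in positive cells of both plates. Cldn14, a tight junction protein, and Adamtsl1, related to the microfibril-binding ADAMTS proteins, were respectively at 50.5 and 68.0 CPM and at 58.8 and 144 CPM in positive cells and at 0.228 and 0 CPM and at 2.28 and 0 CPM in negative cells, and neither was called (0.198 and 0.330).

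Of 13 tested genes of the repair SC and injury response 0 were called, 4 higher and 6 lower in both plates. Jun, a driver of the repair state, was at 207 and 155 CPM against 626 and 1733 CPM (edgeR adjusted p = 0.103), and Ngfr at 0.693 and 0.142 CPM against 22 and 2.67 CPM. Cell cycle genes summed to 23.6 and 16.4 CPM in positive cells, and Mki67 was at 0.853 and 0.638 CPM. Nes, an intermediate filament gene, was at 152 and 138 CPM against 45.6 and 25.5 CPM (0.271).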

How the data were processed

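The values are raw counts of reads for 25700 genes in 768 cells, as deposited by the authors in 1 matrix. The submitters' processing notes name bcl2fastq, STAR 2.6.1c, featureCounts and GRCm38.p5, and the study's methods name another STAR version and a human build. Strand and multi-mapping settings were not given in the sources used here, so genes whose exons overlap another gene of the matrix are marked. Overlaps with genes absent from the matrix were not searched, so an unmarked gene such as Gm37376 may still share reads with one. Symbols and coordinates come from GENCODE M21 (GRCm38), which held 25664 of the identifiers. Upstream sequences come from RefSeq (GRCm38.p6). The filters kept 623 cells, with 20714 to 4076083 reads each.

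The members, gene lists and rules were chosen with earlier results of these data known. Counts were summed per plate and class into 6 sums of 14109339 to 151133488 reads, in which cells weigh by their reads, and were tested with edgeR 4.0.16 in R 4.3.3 (quasi-likelihood F-test with the plate as a block; TMM normalization; genes kept by filterByExpr at a min.count of 10). The block was used because the classes of a plate come from the same mice. Mfap5 and the 12 score genes were left out of the test. Standard errors (SE) follow from the fitted ratio and its F statistic. Ratios within a plate add 1 CPM. P-values were adjusted by Benjamini-Hochberg across the whole set of tested genes and called at 0.05. Each plate pools mice and was fitted as a block. The p-values therefore set each ratio against how far the differences between the 3 classes, M ≤ N cells included, varied from plate to plate. The edgeR fit moderates this spread toward a trend over all genes, so the p-values also rest on the spread of other genes. Cells were not treated as replicates. Cell values were thinned to 20000 reads where stated. Intervals are exact (Clopper-Pearson), and a count of 0 was taken to allow 3 counts. PCR reads without molecular identifiers are not independent molecules. No doublet caller was run, as cells were sorted singly into wells.

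Genes named are the given markers, up to 15 called in each direction by largest fitted ratio (same sign in both plates with a read in at least 25% of cells, per plate, of the class where the gene is higher), and from each list the called genes and members at the highest levels. The remaining called genes, and the list members printed for low or contrasting levels, were chosen after their values were seen. DESeq2 1.42.0 was an alternative. The edgeR script was tested on simulated data. Some genes that meet these rules are not reported here.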

Additional observations from a re-analysis of the deposited data

Results flagged for a closer look

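Outside the comparison, in plate 1, 80 cells failed the filters on reads or genes, and 4 of them had M above N, Mfap5 at 100 CPM or more and at least 5 Mfap5 reads. They are of interest because they carry the signal that chose the positive cells in data left out of every result. Mfap5 reached 100 CPM with M above N in 41 of the 80, in most of them on fewer than 5 reads. In plate 2, 65 cells failed and 0 met these conditions.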

How the results depend on the processing

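The number of genes called depended on the fit more than on the definition of the cells. With only the 4 sums of the cells with M above N, 236 genes were called (160 higher, 76 lower), with DESeq2 966 (535 and 431), with no filter on low counts 96 (57 and 39), with cells thinned before summing 216 (108 and 108) and with the cell of most reads left out of each class and plate for each gene 134 (92 and 42). Without the plate as a replicate block 15 were called (11 and 4). With at least 2500 detected genes 35 were called (26 and 9). The other alternatives (RLE size factors, a higher minimum of reads, Mfap5 limits of 50 and 200 CPM, negative cells at or under 10 CPM, M above N by 1, M of 8) gave 37 to 59 genes. No named gene changed sign. Within plate 2 alone 9, and within plate 1 alone 11, of 32 ratios lay further from the fitted ratio than the SD between plates. Ratios within a plate add 1 CPM and fitted ratios do not, so these counts do not measure disagreement between plates. Hes1, for example, had -5.00 in both plates and -5.79 fitted. Vstm4, Apod, Nbl1, Fam57a, Cfap100, Cntf, Zfp91, Sncg and Cuedc2 were called in all 14 alternatives with a test. Zfp91 shares most of its reads with Cntf, so its calls are not separate from those of Cntf. The median log2 ratio of all genes was -0.09 with DESeq2, -0.03 with M of 8 or more and -0.43 with the cell of most reads left out, against -0.21. Leaving out a plate leaves no residual degrees of freedom and so no test. The share of positive cells was 22.9% to 49.1% over single plates. At 5 of 20000 thinned reads, Ogn was found in 94.2% and Slc36a2 in 98.7% of positive cells (means of 2 plates), against 95.5% and 100%. The sums of plate 2 rest on 19 positive cells, which limits the precision for genes read in few of them. The causes of these changes were not tested.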
